A study of Homo sapiens with 6 samples.

Results

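The miR-26 family was followed in exosomes, nano-sized vesicles shed into culture medium, from H1299, an established human line of non-small cell lung cancer. It comprises hsa-miR-26a-5p and hsa-miR-26b-5p, chosen by name, which are 2 of the 1247 miRNA entries of the deposited count table; the prefix is left out below. One group of cells stably expressed a short hairpin RNA against WDR4 (shWDR4), the other a control hairpin, and both were labelled wild type otherwise. Before collection, both spent 48 hours in exosome-depleted medium. Whether either line was a clone or a mixed population is not given in the sources used here. Per the labels there were 6 libraries, 3 independent repeats a group, and the deposited table joins the 3 libraries of a group in 1 count column. Every group value below is therefore the authors' pooled value, no test between the groups was possible, and the intervals cover counting error only. The shWDR4 column held 552913 counts and the control column 1020282. All libraries are of exosomes, so a changed release into vesicles and a changed level in the cells cannot be told apart, nor can fewer vesicles and less RNA per vesicle.

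A mature miRNA is cut from a hairpin precursor and guides Argonaute proteins to messenger RNAs that pair with its seed, the bases 2 to 8 from its 5′ end. Members of the miR-26 family restrain growth in many tissues and repress EZH2, the catalytic subunit of the polycomb complex that methylates histone H3. Their hairpins lie in genes of the CTDSP family of small phosphatases, which act on the tail of RNA polymerase II and on the retinoblastoma protein RB1, a brake on the cell cycle. In zebrafish, miR-26b represses its own host gene. WDR4 is the non-catalytic partner of METTL1, the enzyme that places 7-methylguanosine on transfer RNA and has been reported to act on some miRNAs.

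The mature sequences, credited to RefSeq on GRCh38.p14, are shown because both members carry the same seed and differ at few bases, which bears on how reads can be divided between them. The seed is in capitals, and all are written 5′ to 3′.
miR-26a-5p: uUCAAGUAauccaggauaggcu
miR-26b-5p: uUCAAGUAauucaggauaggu
miR-1297: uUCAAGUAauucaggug
miR-4465: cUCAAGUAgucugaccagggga
Counted from 1 at the 5′ end, miR-26a differs from miR-26b by C11U and C21U, and 19 of 21 aligned positions are identical. The first 10 bases are shared, and miR-26a has 22 bases, whereas miR-26b has 21. In the RefSeq table miR-1297 and miR-4465 are the other human miRNAs with this seed, and neither was analysed here. The first 15 bases of miR-1297 are those of miR-26b.

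The identical miR-26a-5p comes from a pair of hairpins, so its count cannot be assigned to either locus. In the precursors below the mature 5p arm is in capitals, to show where the counted reads lie.
MIR26A1: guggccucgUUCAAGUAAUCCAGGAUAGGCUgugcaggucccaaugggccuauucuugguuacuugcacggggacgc
MIR26A2: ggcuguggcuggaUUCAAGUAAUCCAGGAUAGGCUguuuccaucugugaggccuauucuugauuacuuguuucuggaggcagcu
MIR26B: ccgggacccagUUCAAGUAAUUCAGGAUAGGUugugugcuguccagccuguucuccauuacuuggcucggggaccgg
On GRCh38, MIR26A1 lies on the plus strand of chromosome 3 at 37969404 to 37969480, in intron 5 of the 7 introns of CTDSPL (37861960 to 37984469). MIR26A2 lies on the minus strand of chromosome 12 at 57824609 to 57824692, in intron 5 of 7 of CTDSP2 (57819927 to 57846739). MIR26B lies on the plus strand of chromosome 2 at 218402646 to 218402722, in intron 4 of 6 of CTDSP1 (218398256 to 218405941). Each hairpin has the strand of its host gene and overlaps none of its annotated exons in GENCODE release 29.

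Both members were lower in shWDR4 exosomes, and the minor member, miR-26b, was lower by more. The abundant miR-26a-5p had 4545 counts in shWDR4 and 27092 in control, or 8220.1 CPM (counts scaled to a column total of 1000000) and 26553 CPM. Its level was 3.23-fold lower in shWDR4 (exact 95% interval 3.13 to 3.33), a log2 fold of -1.69. It took 0.822% of the shWDR4 counts (0.798 to 0.846) and 2.66% of the control counts (2.62 to 2.69). By count it was entry 21 in shWDR4 exosomes and entry 10 in control exosomes.

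The entry miR-26b-5p had 48 counts in shWDR4 and 567 in control, or 86.8 CPM and 555.7 CPM. It was 6.40-fold lower in shWDR4 (4.76 to 8.78), a log2 fold of -2.68. By count it was entry 238 in shWDR4 and entry 113 in control. The shWDR4 value rests on few counts, so its interval is much wider than that of miR-26a. Together both members held 4593 counts in shWDR4 and 27659 in control, 3.26-fold lower (3.16 to 3.37). If no read was counted for both, the sum does not depend on how reads were divided between members, and miR-26a sets it almost alone.

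The ratio between the members also differed between the columns, a comparison that no scaling of the columns can move. Of the family counts miR-26b made up 1.05% in shWDR4 (0.772 to 1.38) and 2.05% in control (1.89 to 2.22), and these intervals do not overlap. There were 94.7 counts of miR-26a per count of miR-26b in shWDR4 and 47.8 in control. At the fold of miR-26a, 95.1 counts of miR-26b would have been seen in shWDR4, against the 48 observed. The fold of miR-26b was 0.505 times that of miR-26a (0.367 to 0.679). The interval covers counting error only, and the spread of this ratio between the 3 repeats of a group is unknown. At position 11, where the members first differ, a single miscalled base could move a read from one member to the other, and how such reads were handled is not given in the sources used here.

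**Figure D1:**
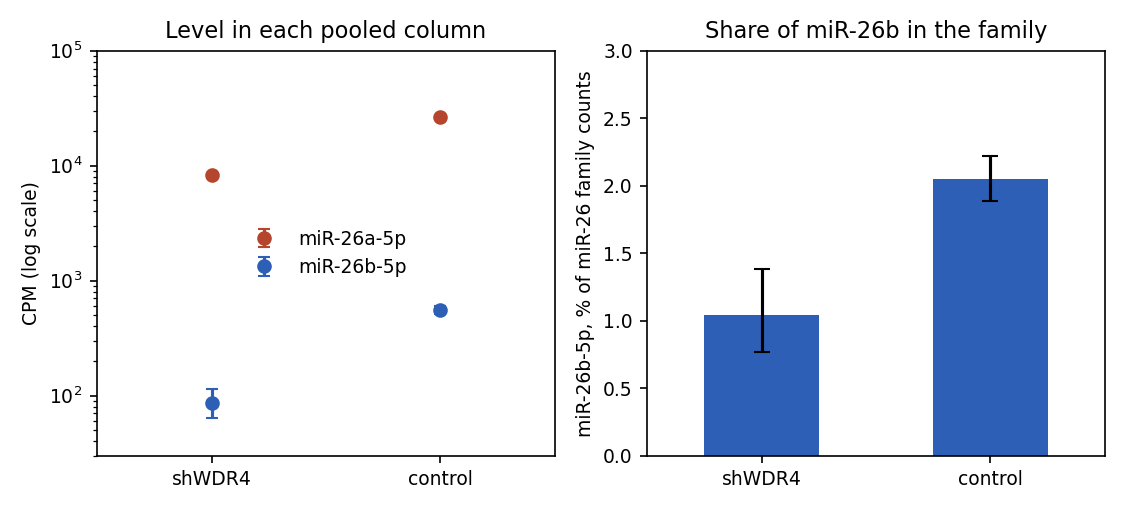
Left, the level of miR-26a-5p and miR-26b-5p in CPM on a log axis in the shWDR4 and control columns; right, the percentage of miR-26 family counts that were miR-26b-5p. Points and bars are pooled values and error bars are exact 95% counting intervals. Both members are lower in shWDR4, and the share of miR-26b is 1.05% in shWDR4 and 2.05% in control.

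The opposite arm of MIR26A1, miR-26a-1-3p, had 0 counts in shWDR4 and 5 in control. At 0 counts, a level of up to 5.43 CPM (3 counts) is still allowed in shWDR4, so no difference in this arm was detectable at this depth. No value was analysed here for the opposite arms of MIR26A2 and MIR26B, so the 3p arms do not show which hairpin gave the miR-26a reads.

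In the authors' deposited table both members carried the mark for lower in shWDR4. Per the file header the mark needs a Storey q-value below 0.001 and a fold of at least 2, and 14.6% of the 927 entries with a deposited fold had it in this direction. The deposited log2 fold, scaled to the column totals and taken as control over shWDR4, was 1.69 for miR-26a-5p and 2.68 for miR-26b-5p in the authors' deposited table. The z-score in the authors' deposited table was 90.05 for miR-26a-5p, which ranked 6 from the highest, on the side of a lower count in shWDR4, and 17.3 for miR-26b-5p, at rank 46. The deposited p-value was listed as 0 for miR-26a-5p and as 9.87e-67 for miR-26b-5p in the authors' deposited table. These values come from the pooled columns and hold no spread between repeats, so they compare the columns and not the conditions.

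Other miRNAs gave a background that was itself often lower. Of the 349 entries whose counts over both columns summed to 50 or more, 31.5% were at least 2-fold lower in shWDR4 and 26.1% at least 2-fold higher, and their median log2 fold was -0.37. Both miR-26 members were past the 2-fold size. Of the 348 other entries, 47 had a lower fold than miR-26a-5p and 14 a lower fold than miR-26b-5p.

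Entries of similar abundance, those with a mean CPM over both columns within 2-fold of the member's, were set against each member. Around miR-26a-5p there were 12, and 2 of them had a lower fold. Their median log2 fold was 0.033, with 4 at least 2-fold lower, 4 at least 2-fold higher and 4 in between. The fold of miR-26a lay 1.72 log2 units under that median (difference -1.72). The lowest folds in this band were those of let-7f-5p, of the growth-restraining let-7 family, at 4.34-fold lower (4.13 to 4.56), miR-1246 at 3.32-fold (3.22 to 3.42) and miR-10a-5p, which lies in the HOXB gene cluster, at 3.08-fold (2.97 to 3.20). The highest were those of miR-7704 with 36296 counts in shWDR4 and 576 in control, miR-4787-5p with 14574 and 610, and miR-4634 with 12334 and 1079. A mean over both columns contains the shWDR4 value, and with the band set on the control CPM alone the difference of miR-26a was -0.75, over 11 entries of which 3 had a lower fold.

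Around miR-26b-5p there were 83 entries, of which 1 had a lower fold. Their median log2 fold was -0.26, with 20 at least 2-fold lower, 26 at least 2-fold higher and 37 in between, and miR-26b differed from the median by -2.42. The lower entry was miR-143-3p, known from smooth muscle, with 81 counts in shWDR4 and 1010 in control, 6.76-fold lower (5.38 to 8.58). Next above miR-26b came miR-2392 at 6.16-fold (4.15 to 9.50) and the endothelial miR-126-5p at 5.41-fold (4.35 to 6.79). The intervals of these 3 entries overlap that of miR-26b, so their order is not resolved at this depth. The highest folds were those of miR-4521 with 704 counts in shWDR4 and 6 in control, miR-1469 with 184 and 2, and miR-6892-5p with 550 and 8. With the band set on the control CPM alone miR-26b differed from the median of 72 entries by -2.04, and 1 of them had a lower fold.

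**Figure D2:**
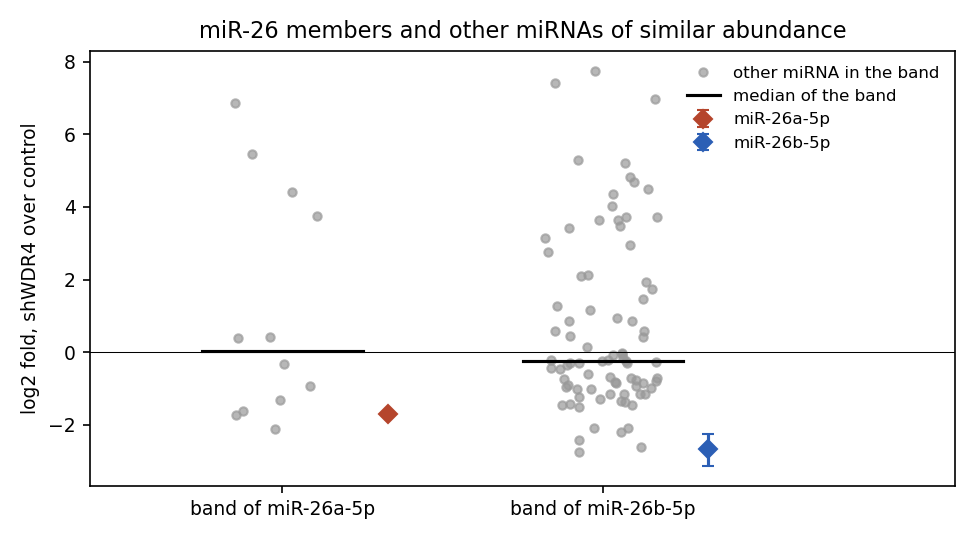
The log2 fold of shWDR4 over control for other miRNAs with a mean CPM within 2-fold of each member's (grey points, spread sideways at random), the median of each band (line) and the member itself with its exact 95% counting interval (diamond). Of the 12 entries around miR-26a-5p 2 lie lower, and of the 83 around miR-26b-5p 1 lies lower.

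The entries nearest to each member in both columns at once were named by their distance in the plane of the log2 CPM in shWDR4 and in control, over 2 pooled columns. Nearest to miR-26a-5p was miR-1246, with 4799 counts in shWDR4 and 29379 in control, at a distance of 0.14. It was followed by miR-151a-5p, which lies in an intron of the kinase gene PTK2, with 6156 and 28090 counts, 2.47-fold lower (2.41 to 2.54), at 0.44. Then came miR-320a-3p with 7292 and 25908 counts at 0.69, miR-10a-5p with 3117 and 17739 at 0.82, and miR-30a-3p with 5043 and 11756 at 1.21. The intervals of miR-26a and miR-1246 overlap, and miR-151a-5p was lower by less than miR-26a beyond counting error.

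Nearest to miR-26b-5p was miR-139-5p, with 57 counts in shWDR4 and 445 in control and a distance of 0.43, 4.23-fold lower (3.21 to 5.68). Next was miR-12136 with 70 and 596 counts at 0.55, and then miR-424-5p, a relative of miR-16 that restrains the cell cycle, with 41 and 320 counts at 0.86. After them came miR-362-5p with 66 and 337 counts at 0.88 and miR-137-3p with 67 and 323 at 0.94. The choice by distance takes entries with folds near that of the member, for miR-26a and miR-26b alike, so their direction is fixed by it. The 5 were lower in shWDR4 by between 2.61-fold for miR-137-3p and 4.61-fold for miR-12136, all less than miR-26b, although the intervals of the 3 nearest overlap that of miR-26b.

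The members share a low content of G and C, which the choice by name did not use. Of the 349 entries 311 had a mature sequence in the RefSeq table. The mature miR-26a-5p has 40.9% GC and miR-26b-5p 33.3%, against a median of 54.5% over the other 309 entries, of which 33 lay below miR-26a and 11 below miR-26b. Across these 309 entries the log2 fold and the GC content moved together, with a Spearman rho of 0.56, given as a description because entries are not independent and share the pooled columns. Of the 99 entries with less than 50% GC, 56.6% were at least 2-fold lower and 9.09% at least 2-fold higher. Of the 59 entries with 70% GC or more, 6.78% were at least 2-fold lower and 61.0% at least 2-fold higher. Among the 184 entries with numbers below 1000, mostly long-known miRNAs, rho was 0.49.

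Against entries of like GC content miR-26a stood less apart. Of the 121 entries within 10 percentage points of its GC content, 50.4% were at least 2-fold lower, with a median log2 fold of -1.02, and 25 had a lower fold than miR-26a. When both abundance and GC content were matched, 5 entries remained, and miR-26a differed from their median by -0.067. Of those 5, let-7f-5p and miR-1246 had lower folds than miR-26a, miR-10a-5p was 3.08-fold lower in shWDR4 and miR-30a-3p 1.26-fold lower. The remaining entry, miR-100-5p, had 15686 counts in shWDR4 and 21582 in control, which after scaling is 1.34-fold higher in shWDR4 (1.31 to 1.37). For miR-26b, 52 entries lay within 10 percentage points of its GC content, 65.4% of them at least 2-fold lower, with a median log2 fold of -1.42, and 6 had a lower fold than miR-26b. When both were matched, 9 entries remained, none with a lower fold than miR-26b, and it differed from their median by -1.71. The part of base composition in the result was not tested.

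**Figure D3:**
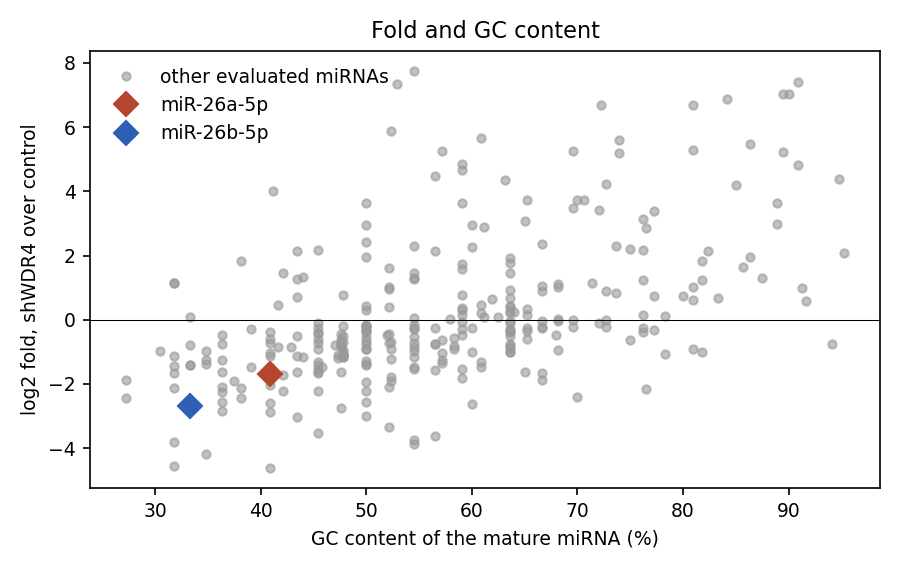
The log2 fold of shWDR4 over control against the GC content of the mature miRNA in percent, for the 309 other entries with at least 50 counts and a RefSeq sequence (grey) and for both miR-26 members (diamonds). Both members lie at low GC content, where most entries are lower in shWDR4.

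The tetranucleotide GGAG, a letter run reported in miRNAs that enter exosomes of T cells, was searched on the strand of the mature miRNA and occurs in neither member. It was found in 62 of the 311 entries with a sequence, or 19.9%. The median log2 fold was 0.16 in entries with it and -0.47 in entries without it. The median GC content was 62.3% in entries with it and 52.4% in entries without it, and the part of GC content in this split was not tested.

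The family was also set against families that resemble it, by ratios of folds that do not depend on the scaling of the columns. The let-7 family, which likewise restrains growth, was as a sum lower by more than miR-26. The miR-26 sum had a fold 1.86 times that of the sum of its 9 members (1.80 to 1.93), which took 3.93% of the shWDR4 and 23.9% of the control counts. Most of the let-7 sum was let-7a-5p, with 16494 counts in shWDR4 and 179241 in control. Its members ran from 2.69-fold lower for miR-98-5p (2.25 to 3.22) to 24.5-fold for let-7c-5p. The interval of miR-98-5p overlaps that of miR-26a, so their order is not resolved at this depth. Taken alone, miR-26b had 0.95 times the fold of let-7 (0.692 to 1.28), an interval that includes no difference. The pair miR-103a-3p and miR-107, which likewise lies in introns of a gene family, the pantothenate kinases PANK, was 2.14-fold lower in shWDR4 (2.04 to 2.26). The fold of the miR-26 sum was 0.657 times that of this pair (0.619 to 0.698). In that pair both members had like folds, 2.13-fold lower for miR-103a-3p (2.02 to 2.25) and 2.24-fold for the minor miR-107 (1.93 to 2.62). The miR-15/16 family of cell cycle restraining miRNAs was 2.57-fold lower as a sum (2.53 to 2.60), most of which is miR-16-5p with 21504 counts in shWDR4 and 105861 in control. Its member miR-503-5p went the other way, with 927 counts in shWDR4 and 389 in control. The fold of the miR-26 sum was 0.786 times that of the miR-15/16 sum (0.759 to 0.814).

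Other miRNAs that share a target or a kind of locus with miR-26 were counted from fixed lists. Of 6 miRNAs known to repress EZH2, 5 were measured and 4 had at least 50 counts. All 4 of those were at least 2-fold lower, against 31.5% of all 349 entries. Their median log2 fold was -3.57, against -0.37 over the 349. The list holds only let-7 and numbers below 1000. Of the 210 entries of that kind apart from miR-26, 92 were at least 2-fold lower, with a median of -0.84. The 4 were let-7a-5p, let-7b-5p and let-7c-5p together with miR-138-5p, which had 8 counts in shWDR4 and 181 in control, 12.3-fold lower (6.09 to 28.8). Of these 4, 3 belong to the let-7 family, so they are not separate evidence. The remaining entry, miR-214-3p, had 1 count in shWDR4 and 0 in control.

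Of 26 miRNAs listed as coming from introns of protein-coding genes, 21 were measured and 19 had at least 50 counts. Of these 9 were at least 2-fold lower, none was at least 2-fold higher and 10 lay in between, with a median log2 fold of -0.97, against 31.5% lower and 26.1% higher over all 349 entries. The list holds only numbers below 1000, and of the 210 other entries with such numbers 92 were at least 2-fold lower and 25 at least 2-fold higher, with a median of -0.84, so the list lies near that background. Their folds ran from miR-126-3p of EGFL7 at 4.68-fold lower (4.40 to 4.98) to miR-342-3p of EVL, with 151 counts in shWDR4 and 144 in control, which was higher. The fold of miR-26a lay within this range, and that of miR-26b was lower than all 19, with an interval that overlaps those of miR-126-3p, miR-28-5p and miR-340-5p. Over all 95 other entries that GENCODE places wholly in introns on the same strand, the median log2 fold was -0.39, close to that of all 349. For 69 of the 349 entries no hairpin was matched. Among the listed 19, these include miR-93-5p, miR-186-5p and both arms of miR-28 and of miR-151a. The hairpins of the listed miR-30c-5p were not all placed in introns.

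Markers of other cell types were counted beside miR-26. Of 15 such miRNAs of blood, liver, muscle and vessels, all measured, 7 had at least 50 counts and 6 of those were at least 2-fold lower, against 31.5% of all 349 entries. The exception was the leukocyte miR-142-5p, with 17 counts in shWDR4 and 54 in control. All 15 have numbers below 1000, and of the 210 evaluated entries with such numbers apart from miR-26, 92 were at least 2-fold lower. Together the 15 took 0.336% of the shWDR4 counts and 1.45% of the control counts. Most of this sum was the endothelial miR-126-3p, with 1153 of 1858 counts in shWDR4 and 9954 of 14773 in control, which is also among the intronic miRNAs above. Of the red cell markers miR-486-5p had 100 counts in shWDR4 and 509 in control, miR-144-3p had 2 and 7, and miR-451a had 3 and 0. The leukocyte miR-142-3p had 3 and 100 counts, 18.1-fold lower in shWDR4 (6.01 to 89.1), and miR-223-3p had 7 and 18. The leukocyte miR-150-5p had 18 and 24 counts, after scaling 1.38-fold higher in shWDR4 (0.708 to 2.66), an interval that includes no difference. The liver miR-122-5p had 379 and 2182 counts, and the muscle miR-206 0 and 3. Without these markers in the totals miR-26a was 3.27-fold and miR-26b 6.47-fold lower in shWDR4. The part of RNA from other cells in the miR-26 counts was not tested.

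The size of the difference moved with the scaling, and a few entries, miR-3960 first, filled much of the shWDR4 column. Both members were lower in shWDR4 with all 9 scalings shown. With the totals taken without miR-3960, miR-6126 and miR-7704, miR-26a was 2.04-fold and miR-26b 4.04-fold lower. With the totals of entries numbered below 1000, miR-26a was 1.59-fold lower, within the 2-fold size, and miR-26b 3.15-fold. The ratio between the members does not move with the scaling.

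**Figure D4:**
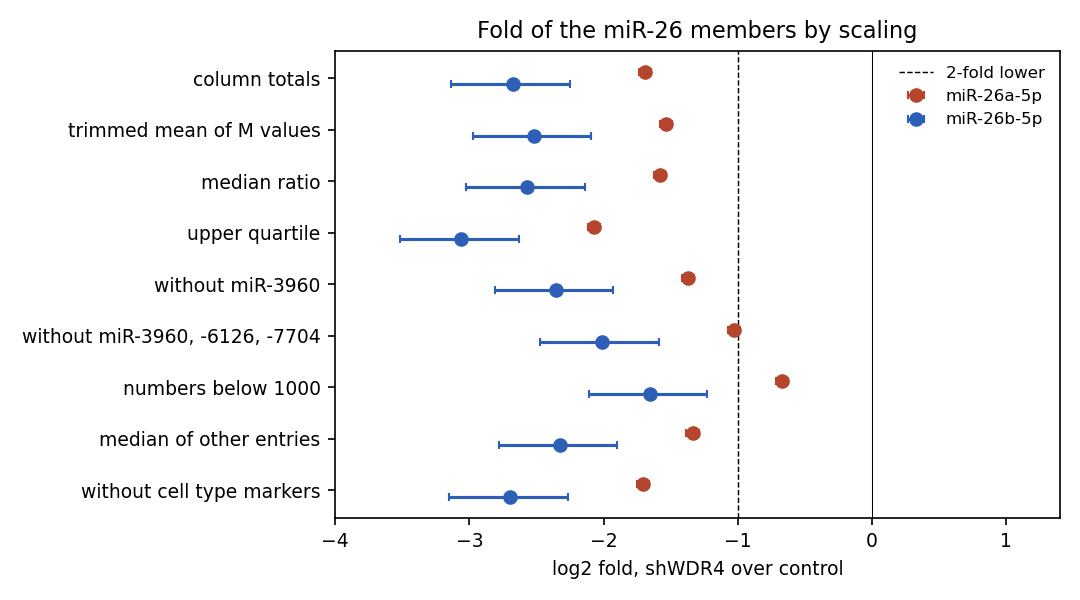
The log2 fold of shWDR4 over control for miR-26a-5p and miR-26b-5p with 9 ways of scaling the columns, with exact 95% counting intervals. All values lie below 0, and miR-26a passes to the right of the 2-fold line with totals of entries numbered below 1000.

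The authors' deposited tables of enriched terms were searched for 14 genes tied to the family, the CTDSP hosts and known targets such as EZH2 and CCNE1. None of these 14 was among the 30 genes of the Gene Ontology terms or the 14 genes of the KEGG terms in the authors' deposited tables, whose choice of genes is not stated.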

How the data were processed

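Small RNA of exosomes was sequenced from 3 shWDR4 and 3 control libraries. Per the file headers, the deposited values were whole-number counts per mature miRNA, 3 libraries joined per column. The submitters' processing notes name edgeR, Bowtie, SAMtools, FastQC and Trim Galore, with no role or version. Not given in the sources used here were the build, the annotation, the handling of reads that match several miRNAs and any collapsing of molecular identifiers. Some entries had equal values, as if shared reads were counted for each of them. Both miR-103a-3p and miR-103b had a mean of 4655.4 CPM and a log2 fold of -1.09. Both miR-423-5p and miR-3184-3p had 40748.8 CPM and -0.77. The column totals would then hold such reads more than once. Per the file headers, the authors also computed and deposited log2 folds, a z-score, p-values and q-values. The deposited score is a z-value of the authors' comparison of the pooled columns, per the file headers, with no formula given.

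Counts were divided by column totals to give CPM. Folds are shWDR4 over control with exact 95% intervals conditional on the summed counts, and shares have Clopper-Pearson intervals (scipy 1.17.1). Both cover counting error only, and the fold intervals alone were checked on simulated data. Ratios of folds have exact conditional intervals. Entries with at least 50 counts were evaluated, and 3 counts stood in for a 0. The planned edgeR quasi-likelihood test needs values per library and was not run; edgeR 4.0.16 gave scale factors. Named entries were both members, the other miR-26 entries, 5 nearest entries per member, 3 highest and 3 lowest folds per abundance band and fixed lists, of which the longest are given by range; entries named under both abundance and GC were named after their values were seen. A further gene of the lists is not reported here. Members and lists were chosen with earlier results of these data known. Alternatives were other scalings, bands, minimum counts and base composition. Mature sequences were found in RefSeq for 1115 of 1247 entries.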

Additional observations from a re-analysis of the deposited data

How the results depend on the processing

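Of 49 recomputed values 21 stayed within their counting interval or 1.5 times the count, and 28 moved further. No fold or difference from a median among them changed direction, and the shares and counts of entries have none. Each scaling moves both members and their sum by the same shift, and the sum follows miR-26a, so these values are not separate. The log2 fold of miR-26a-5p and of the family sum was -1.53 and -1.55 with the trimmed mean of M values, -1.58 and -1.60 with median ratios, -2.07 and -2.09 with upper-quartile scaling, and -1.37 and -1.38 without miR-3960. It was -1.03 and -1.04 without miR-3960, miR-6126 and miR-7704, -0.67 and -0.68 with totals of entries numbered below 1000, and -1.34 and -1.35 with the median of the other entries. For miR-26b-5p it was -2.02 without those 3 entries and -1.65 with entries numbered below 1000. The difference of miR-26a from entries of similar abundance was -2.12 with a 1.5-fold band, -0.93 with a 4-fold band, -0.75 with the band on control CPM, -1.49 with it on shWDR4 CPM, -0.75 with entries numbered below 1000, -2.09 without let-7 and -0.067 with GC content matched. That of miR-26b was -1.99 with entries numbered below 1000 and -1.71 with GC content matched. A minimum of 200 counts left 68 of 208 entries at least 2-fold lower and 48 higher, as fewer entries were counted. A minimum of 20 gave 154 lower and 151 higher of 501 entries, against 110 and 91 of 349 with the minimum of 50. The cause of the other moves was not tested. GC matching, scaling to the median of other entries and totals without cell type markers were chosen after seeing the data. Adding miR-1297 and miR-4465 was not run, since neither was analysed here. No paired analysis was possible because the deposited columns carry no value per library, and for the same reason no replicate could be left out. The fold of miR-26b rests on 48 shWDR4 counts.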
